A study of Homo sapiens with 8 samples.

Results

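Aminoacyl-tRNA synthetases attach each amino acid to its tRNA, the step that supplies the ribosome with charged tRNA. Human cells carry separate nuclear genes for most cytosolic and mitochondrial enzymes, and the mitochondrial set takes the suffix 2 in its gene symbols. The members described here were 36 such genes, 20 cytosolic and 16 mitochondrial, found by gene symbol among the 23193 genes of the PRO-seq count tables. Every member was in both tables, and all 36 passed the filter on low counts in both regions, so none was left out.

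PRO-seq (precision nuclear run-on sequencing) maps engaged RNA polymerase II, and its reads were counted once in a TSS region of 551 bp around the start of each gene and once in the gene body. HCT116, an established human colorectal carcinoma line, was compared as wild type (WT) and as HIF1A-/- cells made by gene targeting. Cells of each genotype were kept in normoxia or at 1% O2 for 90 min (hypoxia), and all 8 cultures, the normoxic ones included, received the vehicle DMSO. There were 2 libraries per group, from independently prepared nuclei, with gene body totals of 18125234 to 23622392 reads and TSS totals of 2783581 to 5966348. How many clones the HIF1A-/- line represents was not given in the sources used here, so differences between genotypes cannot be told apart from other differences between the lines. The HIF1A gene body itself had 129 to 164 CPM (counts scaled to a library total of 1000000) in the 4 WT libraries and 141 to 172 in the HIF1A-/- libraries, and nascent reads over the whole gene do not test an internal disruption. Of 16 HIF target genes listed as a check, 13 were called higher in WT hypoxia and none in hypoxic HIF1A-/- cells. Of all tested gene bodies, 0.431% and 0% were called. The median log2 fold changes of the 16 genes were 2.16 and 0.04 (in HIF1A-/- cells 0 of 16 were below an unadjusted p of 0.05). The list was chosen with earlier results of these data known, so the check was not independent of them. Colorectal epithelial markers such as KRT8 and EPCAM (9 of 10 listed were in the counts, without CLDN3) summed to 891 to 1350 CPM per library. However, CDX1 and VIL1 were near 0 (at most 0.236 and 0.635 CPM), and ELF3 ranged from 6.95 to 182 CPM between libraries. The 10 markers of other cell types summed to 38.6 to 87.7 CPM, of which COL1A1 (19.0 to 50.3 CPM), VWF (7.82 to 26.2), CD68 (6.72 to 13.2) and CDH5 (0.193 to 1.65) passed the filter, while PTPRC, CD3E, COL1A2, DCN and PECAM1 did not exceed 0.444 CPM.

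The enzymes fall into class I and class II by the fold of their catalytic domain. EPRS is a fusion that charges both glutamate and proline tRNAs, FARSA and FARSB are the subunits of one phenylalanine enzyme, and GARS and KARS serve both compartments. EPRS, DARS, IARS, KARS, LARS, MARS, QARS and RARS sit with the scaffold proteins AIMP1, AIMP2 and EEF1E1 in the multi-synthetase complex. Many cytosolic synthetase genes are known targets of ATF4, the transcription factor of the amino acid and integrated stress responses, whereas HIF1A, stabilized when oxygen falls, acts through the core sequence ACGTG or GCGTG.

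DARS, the cytosolic aspartyl-tRNA synthetase, was the member that rose in hypoxic WT cells. Its gene body (GRCh37 chr2:136663450-136742253, minus strand) had 138 and 151 CPM in normoxic WT cells, and 242 and 299 CPM in hypoxic WT cells. In HIF1A-/- cells it had 131 and 123 CPM in normoxia, and 129 and 125 CPM in hypoxia. Both WT hypoxia libraries lay above the other 6, which lay between 123 and 151 CPM. The increase was 1.83-fold in WT cells (log2 fold change 0.87 ± 0.14 SE, edgeR adjusted p = 0.0834, and 0.0110 with the replicate number as a block, which called 5.51% of gene bodies and no other member). Within replicate number 1 the CPM ratio of hypoxia to normoxia was 1.75, and within number 2 it was 1.98. In HIF1A-/- cells the log2 change was -0.04 ± 0.14 (adjusted p = 1, edgeR). DARS was the single member among the 72 gene bodies called at a false discovery rate (FDR) of 10% in hypoxic WT cells, 0.431% of 16686 tested. Leaving out any of the 4 WT libraries took the call away, with log2 fold changes of 0.74 to 1.00 and edgeR adjusted p from 0.115 to 0.882, as did a fit on the WT libraries alone (adjusted p = 0.101). The count over all gene bodies moved too, from 72 to 0 without either normoxic WT library, 53 without WT hypoxia replicate 1 and 14 without WT hypoxia replicate 2. In these bulk libraries, a change in the share of cells transcribing a gene cannot be told apart from a change within each cell.

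In the direct comparison of genotypes under hypoxia, the DARS gene body was 2.15-fold lower in HIF1A-/- than in WT cells (log2 fold change -1.10 ± 0.14, edgeR adjusted p = 0.00906). This call held when any one of the 4 hypoxia libraries was left out (edgeR adjusted p 0.0274 to 0.0677). In normoxia the difference was -0.19 ± 0.14 (adjusted p = 0.879, edgeR). The difference in hypoxia response between genotypes, tested as an interaction, was 0.92 ± 0.20 on the log2 scale with an unadjusted p of 0.00192, and it did not pass in edgeR (adjusted p = 0.638, or 0.130 with the block). It passed with DESeq2 (adjusted p = 0.0314). These comparisons share the WT hypoxia libraries, so they are not separate evidence.

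**Figure D1:**
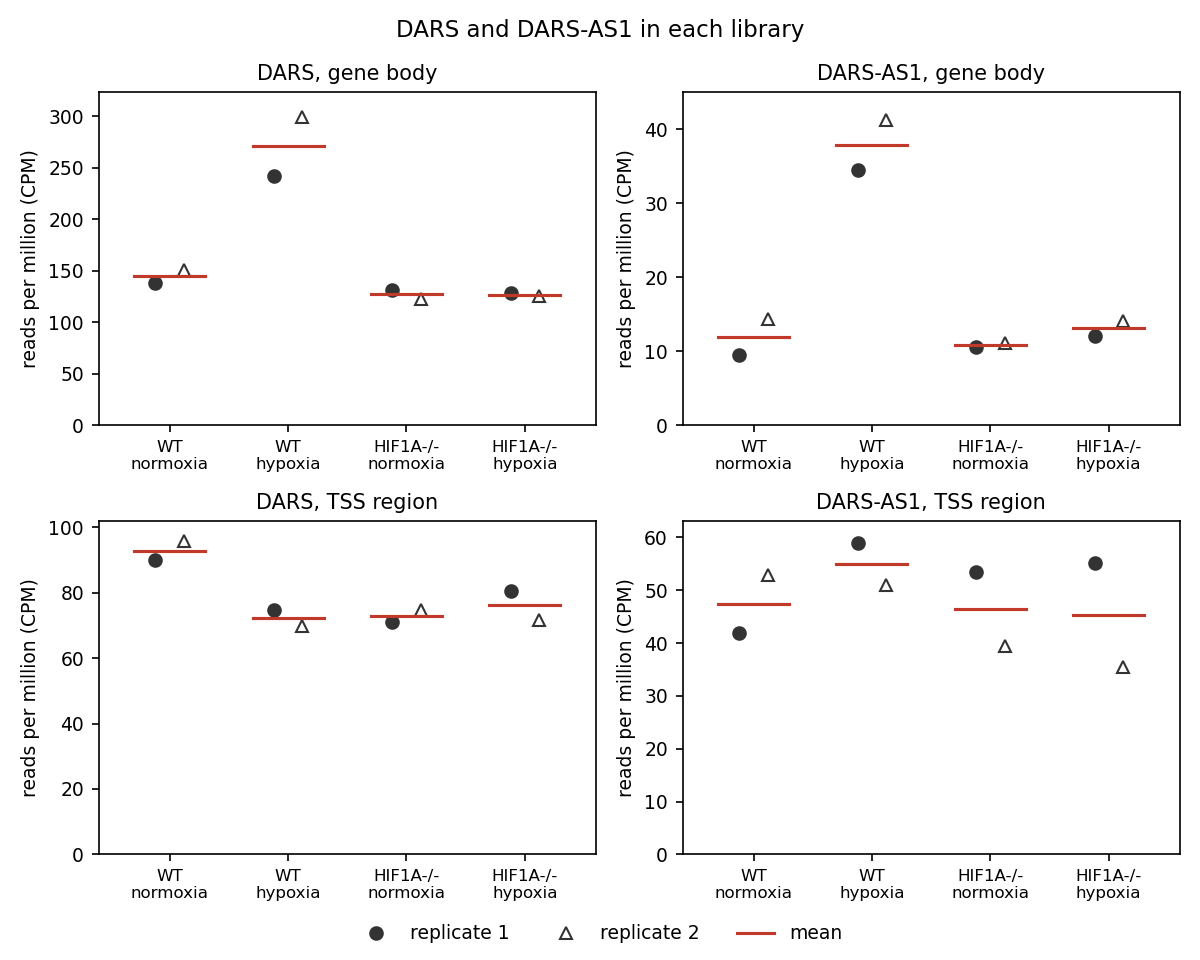
Gene body (top) and TSS region (bottom) reads (CPM) of DARS (left) and DARS-AS1 (right) in each of the 8 libraries, with circles for replicate 1, triangles for replicate 2 and a line for the group mean. The gene bodies of both genes were highest in the 2 WT hypoxia libraries (242 and 299 CPM for DARS), whereas the DARS TSS region was at 75 and 70 CPM there against 90 and 96 CPM in normoxic WT cells.

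No rise was called near the start of DARS. Its TSS region had 89.9 and 95.7 CPM in normoxic WT cells and 74.9 and 69.9 CPM in hypoxic WT cells, and 71.1 to 80.7 CPM in the 4 HIF1A-/- libraries. The WT change was -0.33 ± 0.17 on the log2 scale (edgeR adjusted p = 0.922). The pausing index compares polymerase density near the start with that in the gene body. It draws on the same gene body counts as the rise above, so a change in it is not separate evidence from that rise. The ratio of densities was 19.9 and 19.1 in normoxic WT cells and 11.1 and 8.43 in hypoxic WT cells, while normoxic HIF1A-/- libraries stood at 9.80 and 17.7 and hypoxic ones at 13.3 and 17.3. The WT decrease in pausing index was -1.20 ± 0.21 on the log2 scale (edgeR adjusted p = 0.0309), and DARS was the single member among 28 genes called in this comparison (0.193% of 14494). The call was lost without WT hypoxia replicate 2, WT normoxia replicate 1 or WT normoxia replicate 2 (adjusted p = 0.764, 0.370 and 0.226) and kept without WT hypoxia replicate 1 (0.0612), while the genes called lower over the genome went from 27 to between 8 and 23. The interaction for the pausing index was -1.29 ± 0.31 (edgeR adjusted p = 0.523, and 0.0555 with the block, where DARS was called among 0.145% of genes). The ratio in HIF1A-/- replicate 1 libraries was low across the genome, with medians over all tested genes of 5.84 and 6.67 against 9.30 to 11.5 in the other 6 libraries, and the part of this in the DARS values was not tested.

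DARS starts beside DARS-AS1, a noncoding RNA gene transcribed from the other strand whose start lies 509 bp inside DARS. Its values were looked at after those of DARS had been seen. The DARS-AS1 gene body (chr2:136743746-136762807, plus strand) had 9.47 and 14.3 CPM in normoxic WT cells and 34.5 and 41.3 CPM in hypoxic WT cells. In HIF1A-/- cells it had 10.5 and 11.2 CPM in normoxia and 12.1 and 14.1 CPM in hypoxia, so both hypoxic WT libraries were the highest of the 8, as for DARS. The WT increase was 3.13-fold (log2 fold change 1.65 ± 0.22, edgeR adjusted p = 0.0354), the HIF1A-/- change was 0.23 ± 0.22 (adjusted p = 1), and the interaction did not pass (1.42 ± 0.31, adjusted p = 0.624, or 0.0644 with the block, where it was called). Its TSS region had 41.9 to 53.0 CPM in normoxic WT cells and 51.0 to 58.9 CPM in hypoxic WT cells, a log2 change of 0.24 ± 0.26 (edgeR adjusted p = 0.922). The pausing index of DARS-AS1 was also called lower in hypoxic WT cells (-1.42 ± 0.30, edgeR adjusted p = 0.0893, or 0.00348 with the block). In HIF1A-/- cells that change was -0.29 ± 0.31, and the interaction for the index was not called (-1.13 ± 0.42). The windows around both starts overlap by 492 bp on opposite strands. The libraries were labelled strand-specific, and 437 of 437 genes nested in another gene on the same strand had no reads, against 185 of 876 nested on the opposite strand only. No other tested gene within 200 kb of DARS was called in hypoxic WT cells, including MCM6 downstream of it (log2 change 0.03 ± 0.14, edgeR adjusted p = 0.966).

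The HIF core ACGTG or GCGTG was searched on both strands from 250 bases before to 50 bases after each start in GRCh37. These letters are common: 53.0% of all such windows and 58.2% of those of tested gene bodies held at least 1 of them, as did 13 of 20 cytosolic and 13 of 16 mitochondrial members. A match is a description of the letters, and binding was not measured in these libraries.

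The other 35 members showed no called change in gene body reads with hypoxia in either genotype, but in WT cells most had values slightly below those in normoxia. Of the 36 members, 32 (88.9%) had a log2 fold change below 0 in WT hypoxia, against 52.5% of all tested gene bodies. The median was -0.18 for the cytosolic genes (19 of 20 below 0) and -0.15 for the mitochondrial genes (13 of 16 below 0), against -0.02 for all genes. No gene body was called lower by edgeR (184 at an unadjusted p below 0.05, 296 with the block and 1 with DESeq2). In HIF1A-/- cells 26 of 36 lay below 0 (49.8% of all genes), with medians of -0.12 for the cytosolic and -0.05 for the mitochondrial genes. Leaving out single libraries moved the WT cytosolic median between -0.40 and -0.04 and the mitochondrial median between -0.30 and 0.01, so the size, and for the mitochondrial genes the sign, rested on single libraries. Within replicate number 1, the WT medians of log2 CPM ratios were -0.13 for cytosolic, -0.06 for mitochondrial and 0.04 for all genes. Within number 2 they were -0.24, -0.14 and -0.004. The share of gene body reads that fell in members was 0.395% and 0.350% in normoxic WT cells, 0.381% and 0.335% in hypoxic WT cells, 0.364% and 0.334% in normoxic HIF1A-/- cells and 0.354% and 0.323% in hypoxic HIF1A-/- cells. The share was lower in hypoxia than in normoxia within both replicate numbers of each genotype, and replicate 1 was above replicate 2 in each group.

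**Figure D2:**
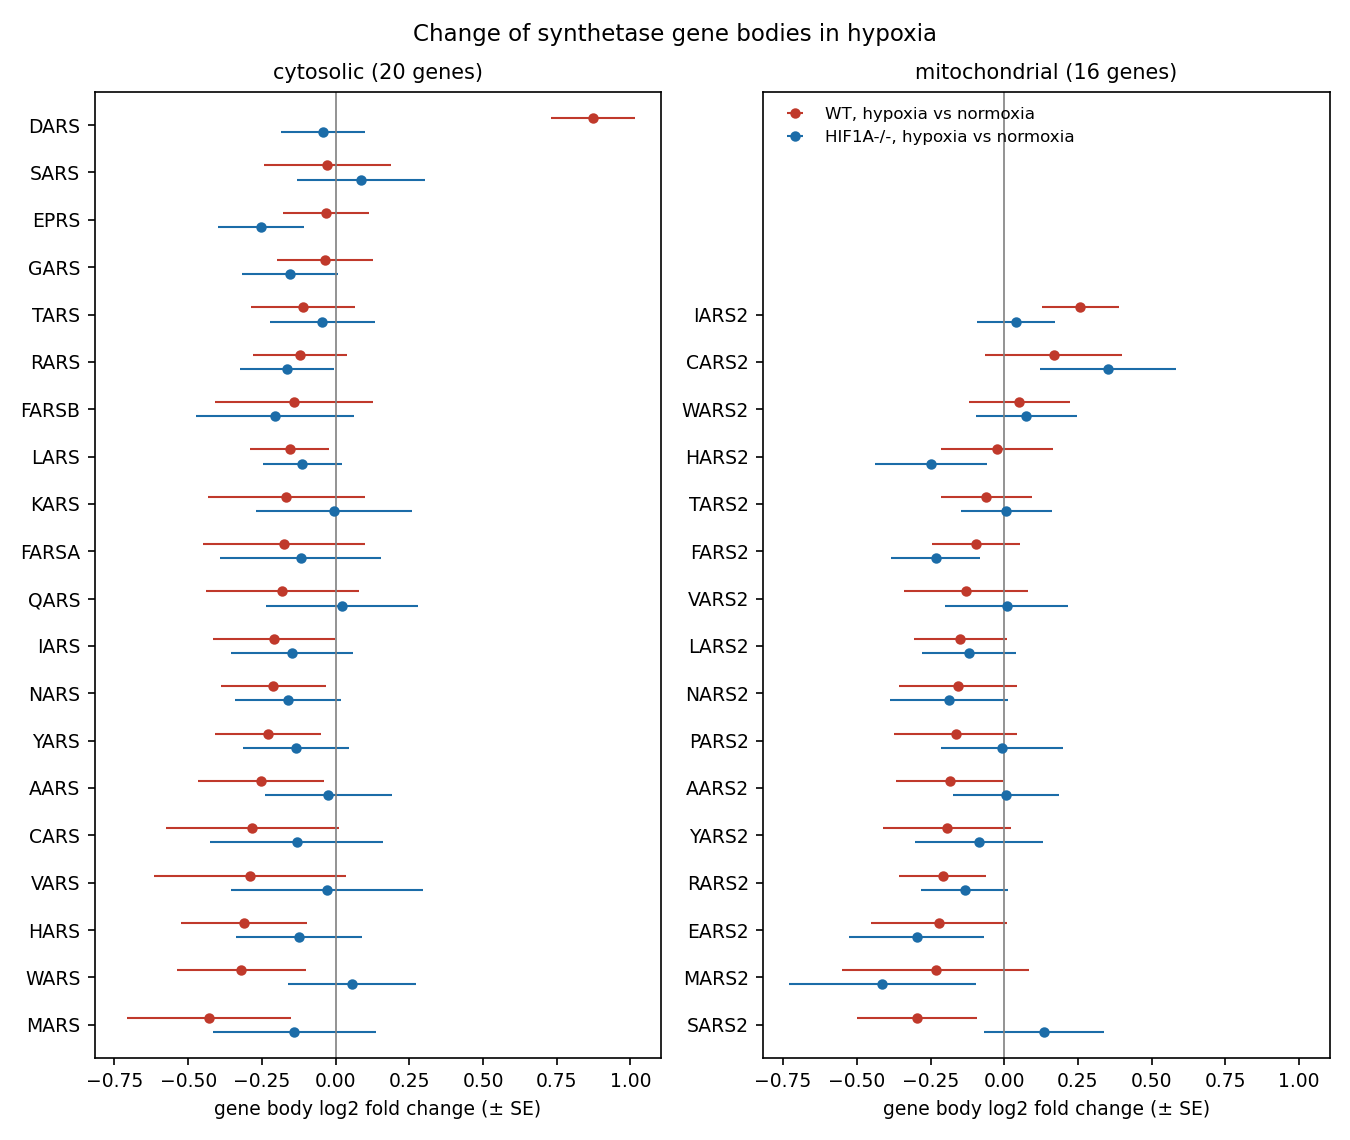
Gene body log2 fold change of hypoxia over normoxia for each synthetase gene, with bars of 1 SE from the edgeR fit, in WT cells (red) and HIF1A-/- cells (blue), cytosolic genes left and mitochondrial genes right. DARS in WT cells stands at 0.87, and the other 35 genes lie between -0.43 and 0.26 in WT cells.

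Among the cytosolic genes, MARS (methionine) had the smallest p after DARS in hypoxic WT cells. It had 112 and 74.2 CPM in normoxic WT cells and 88.6 and 52.7 CPM in hypoxic WT cells, and 80.6, 96.5, 77.7 and 87.4 CPM in the HIF1A-/- libraries in the same order. It was lower in hypoxia within both WT replicate numbers (CPM ratios 0.793 and 0.710), but the log2 change of -0.43 ± 0.28 was not called (edgeR adjusted p = 0.897). Neither subunit of the phenylalanine enzyme was called, with WT changes of -0.18 ± 0.27 for FARSA and -0.14 ± 0.27 for FARSB, and the 2 enzymes that serve both compartments had -0.04 ± 0.16 (GARS) and -0.17 ± 0.27 (KARS). The 8 complex members had a median of -0.16 in hypoxic WT cells, with DARS called and the other 7 below 0. Class I genes had a median of -0.20 (15 of 18 below 0) and class II genes -0.16 (16 of 17 below 0). The fusion EPRS was counted in neither class.

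Among the mitochondrial genes, IARS2 (isoleucine) and SARS2 (serine) had the smallest p in hypoxic WT cells, with opposite signs. IARS2 had 82.2 and 98.6 CPM in normoxic WT cells, 103 and 118 in hypoxic WT cells, 81.6 and 86.1 in normoxic HIF1A-/- cells and 87.5 and 89.7 in hypoxic HIF1A-/- cells. Its WT hypoxia libraries were the highest of the 8, but the change of 0.26 ± 0.13 on the log2 scale was not called (edgeR adjusted p = 0.897). SARS2 had 40.4 and 36.9 CPM in normoxic WT cells, 34.0 and 30.4 in hypoxic WT cells, 48.1 and 39.8 in normoxic HIF1A-/- cells and 55.6 and 43.7 in hypoxic HIF1A-/- cells. It was lowest in hypoxic WT cells, and its log2 fold changes were -0.30 ± 0.20 in WT and 0.14 ± 0.20 in HIF1A-/- cells, with an interaction of -0.43 ± 0.29 (edgeR adjusted p = 1.00). In HIF1A-/- cells no member and no gene body in the genome was called with hypoxia (0% of 16686 in edgeR, with 347 gene bodies but no member below an unadjusted p of 0.05). The block called 6 gene bodies (0.036%) and DESeq2 2 higher and 6 lower (64 and 98 with the block), again without a member. The members with the smallest p there were EPRS (-0.25 ± 0.15) and RARS (-0.17 ± 0.16) among the cytosolic genes, and FARS2 (-0.23 ± 0.15) and CARS2 (0.35 ± 0.23) among the mitochondrial genes, each with an edgeR adjusted p of 1. CARS2 had 178 and 195 CPM in normoxic WT cells, 207 and 221 in hypoxic WT cells, 213 and 159 in normoxic HIF1A-/- cells and 287 and 201 in hypoxic HIF1A-/- cells. RARS stood at 99.5 and 89.1, 89.5 and 87.7, 106 and 89.4, and 93.1 and 86.0 CPM in the same order, with all 4 groups overlapping. The interaction called 9 gene bodies in all (0.0539%, or 0.384% with the block) and no member in edgeR, although DARS was below an unadjusted p of 0.05. After DARS, the smallest p among cytosolic genes was that of WARS (-0.38 ± 0.31).

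**Figure D3:**
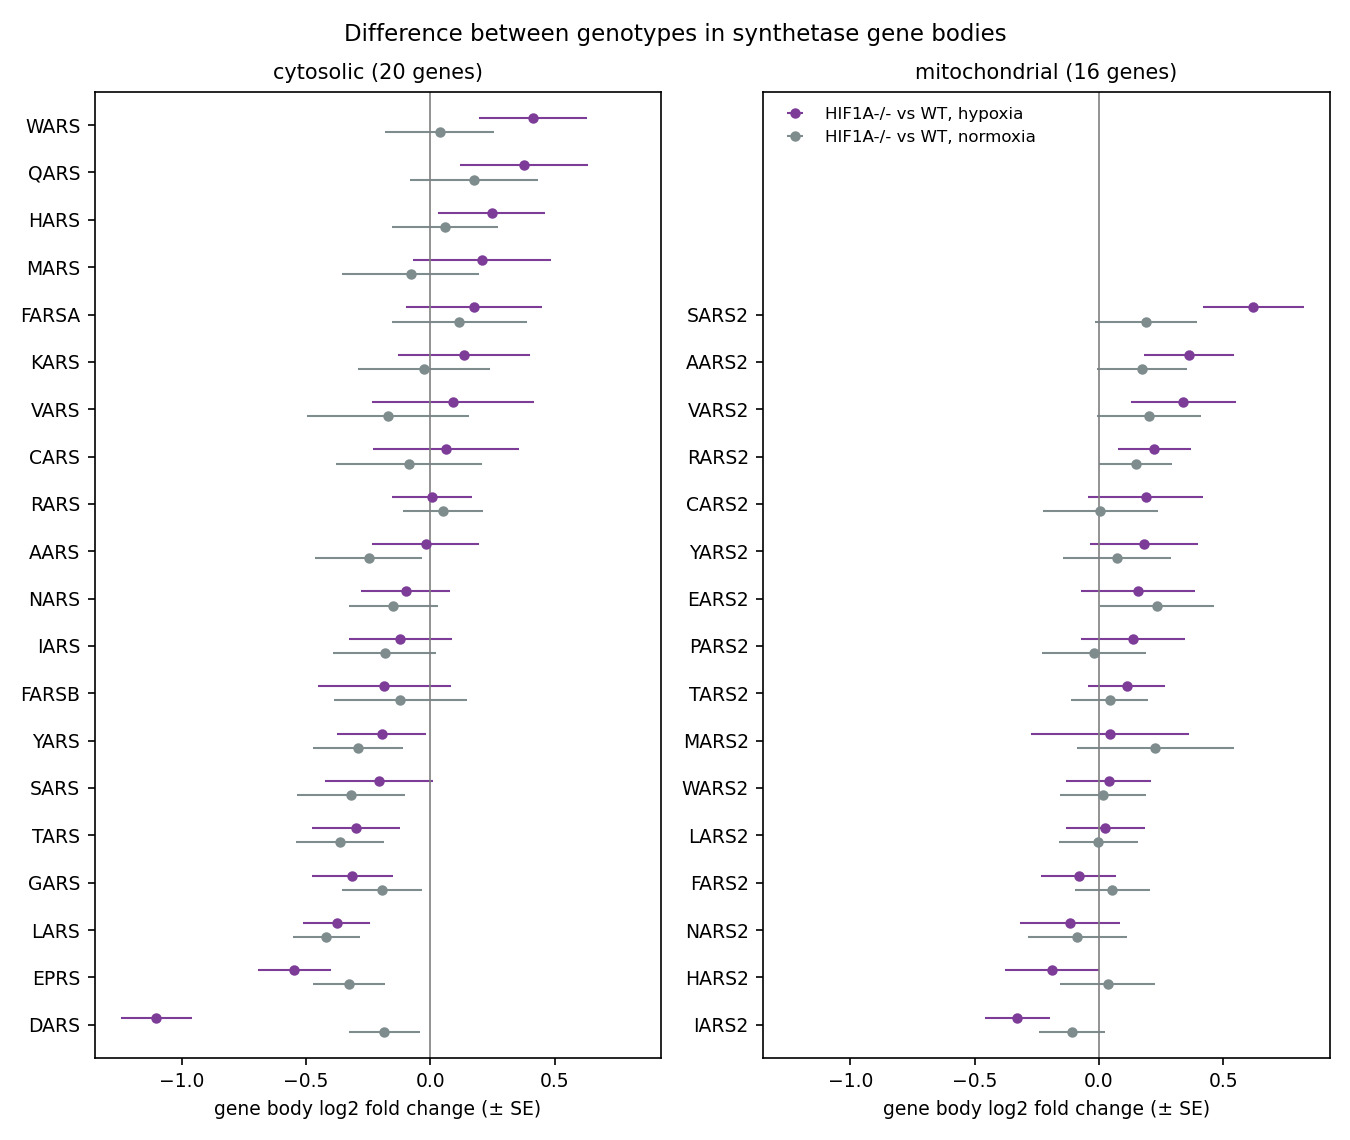
Gene body log2 fold change of HIF1A-/- over WT cells for each synthetase gene, with bars of 1 SE, in hypoxia (purple) and normoxia (grey), ordered by the value in hypoxia. DARS lies at -1.10 in hypoxia and -0.19 in normoxia, while EPRS and LARS lie below 0 at both oxygen levels and SARS2 is highest in hypoxia at 0.62.

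Between genotypes, EPRS and LARS gave lower values in HIF1A-/- cells at both oxygen levels. LARS, which charges leucine tRNA, had 170 and 162 CPM in normoxic WT cells and 153 and 150 in WT hypoxia, against 130, 117, 120 and 116 CPM in the HIF1A-/- libraries in the same order. EPRS had 157 and 135 CPM in normoxic WT cells and 154 and 138 in WT hypoxia, against 120 and 113 in normoxic HIF1A-/- cells and 100 and 101 in hypoxic HIF1A-/- cells. For both genes all 4 WT libraries lay above all 4 HIF1A-/- libraries. In normoxia the log2 difference was -0.42 ± 0.13 for LARS and -0.33 ± 0.15 for EPRS, not called in edgeR (adjusted p = 0.320 and 0.575) but called with the block (0.0249 and 0.0575). The normoxia comparison called 297 gene bodies (1.78%) and no member, and with the block it called 1722 (10.3%), including these 2 members. In hypoxia the differences were -0.55 ± 0.15 for EPRS (edgeR adjusted p = 0.118, 0.00411 with the block) and -0.38 ± 0.13 for LARS (0.231, and 0.0197 with the block). EPRS was also called in hypoxia by DESeq2 (adjusted p = 0.0299), which called DARS and SARS2 besides.

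The hypoxia comparison of genotypes called 711 gene bodies (4.26%), DARS among them. With the block it called 4706 (28.2%) and 11 of 36 members (30.6%), a share close to that background. The 4 members lower in HIF1A-/- cells under the block (15.1% of gene bodies were lower) were DARS, EPRS and LARS of the multi-synthetase complex and the mitochondrial IARS2. The 7 higher (against 13.1%) were HARS, QARS (also of that complex) and WARS of the cytosolic set and AARS2, RARS2, SARS2 and VARS2 of the mitochondrial set. QARS had 38.8 and 25.2 CPM in hypoxic WT cells against 46.5 and 36.9 in hypoxic HIF1A-/- cells, AARS2 42.7 and 36.6 against 56.5 and 46.0, and VARS2 25.8 and 19.4 against 31.2 and 26.2. SARS2 was the leading mitochondrial gene, 1.54-fold higher in HIF1A-/- cells (0.62 ± 0.20, edgeR adjusted p = 0.196, 0.00794 with the block), with 55.6 and 43.7 CPM against 34.0 and 30.4. IARS2 was lower in value (-0.33 ± 0.13, edgeR adjusted p = 0.285, 0.0565 with the block). In normoxia the mitochondrial genes with the smallest p were EARS2 (0.23 ± 0.23) and RARS2 (0.15 ± 0.15), neither called (adjusted p = 0.936 and 0.939, edgeR). EARS2 had 70.7 and 55.6 CPM in normoxic WT cells against 84.0 and 64.1 in normoxic HIF1A-/- cells, and 59.4 and 51.4 against 68.6 and 55.6 CPM in hypoxia. RARS2 had 126 and 110 against 134 and 128 CPM in normoxia, and 112 and 97.0 against 124 and 122 CPM in hypoxia, and the genotypes did not overlap at either oxygen level.

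The classes leaned in opposite directions between genotypes, but each median other than the cytosolic one in normoxia turned sign when a single library was left out. In normoxia 15 of 20 cytosolic genes were below 0 (median -0.16) and 12 of 16 mitochondrial genes above 0 (median 0.05), against a median of -0.01 over all genes. In hypoxia the medians were -0.06 and 0.12, with 11 of 20 cytosolic genes below 0 and 12 of 16 mitochondrial genes above 0. Leaving out single libraries moved the normoxia medians between -0.30 and -0.03 (cytosolic) and between -0.07 and 0.22 (mitochondrial). The hypoxia medians moved between -0.21 and 0.09 and between -0.05 and 0.22. Within replicate number 2 the normoxia medians were -0.005 and 0.02, against -0.18 and 0.10 within number 1. The difference between the classes was not tested.

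**Figure D4:**
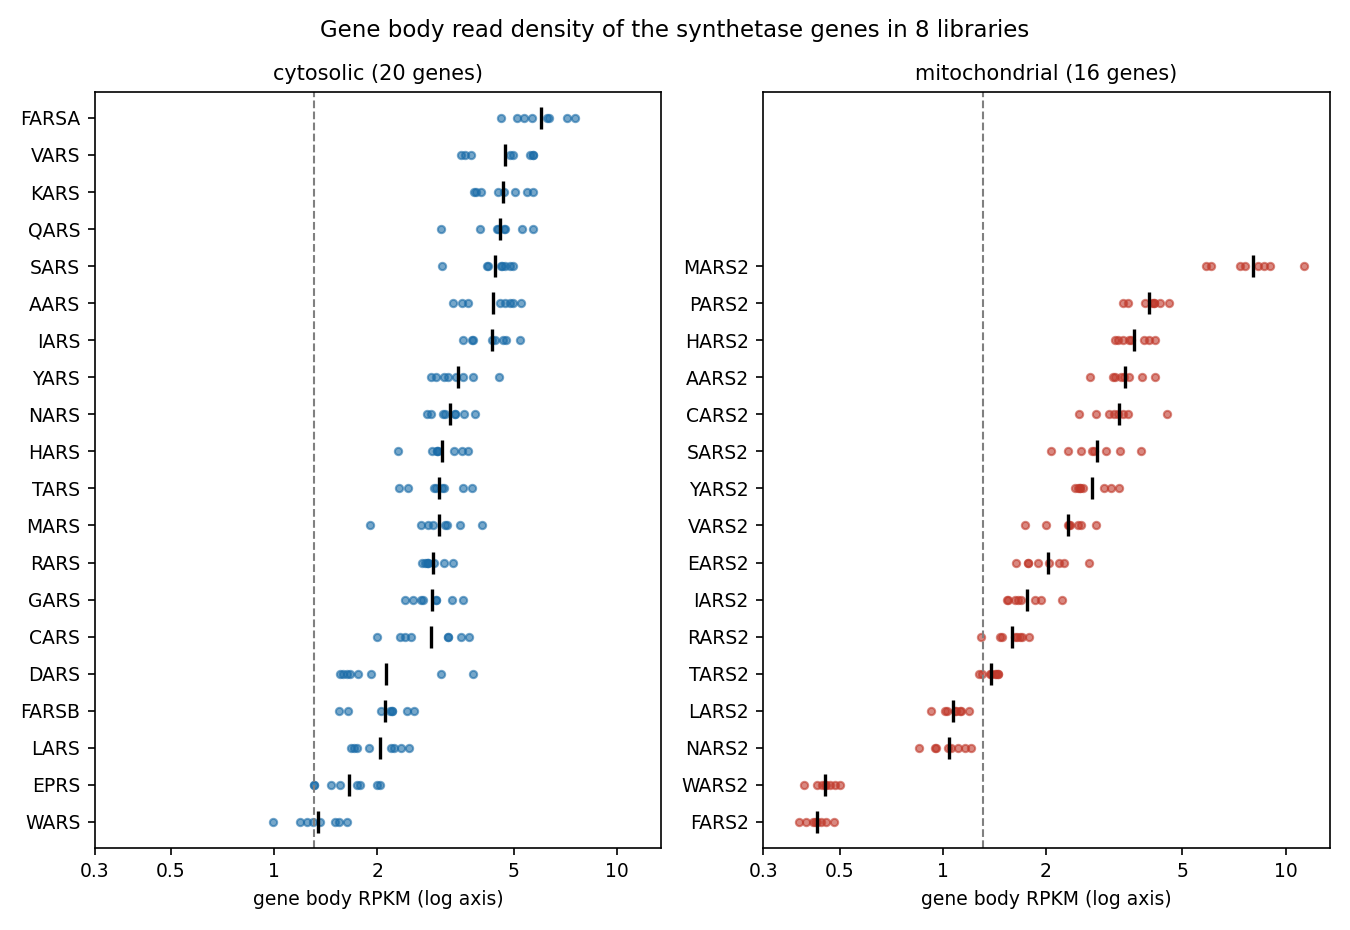
Gene body read density (RPKM, the CPM per kilobase, log axis) of each synthetase gene, with a point per library and a black tick for the mean over 8 libraries, and a dashed line at the median of all tested genes (1.31 RPKM). All 20 cytosolic means lie above that line, from WARS at 1.35 to FARSA at 5.995 RPKM, while the mitochondrial means run from FARS2 at 0.429 to MARS2 at 8.02 RPKM.

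Per length, the synthetase genes were transcribed above the middle of the genome, the cytosolic ones in a narrower range. The mean density over 8 libraries had a median of 3.06 RPKM for cytosolic and 2.18 RPKM for mitochondrial genes, against 1.31 RPKM for all tested genes. All 20 cytosolic and 12 of 16 mitochondrial genes were above that value. From lowest to highest the cytosolic genes spanned 4.46-fold and the mitochondrial genes 18.7-fold. MARS2 was densest, at 7.34 and 9.01 RPKM in normoxic WT cells, 8.33 and 5.86 in hypoxic WT cells, 11.3 and 7.61 in normoxic HIF1A-/- cells and 8.63 and 6.05 in hypoxic HIF1A-/- cells. Every one of these values was above the highest PARS2 value (4.56 RPKM), the next mitochondrial gene. FARS2 was lowest, at 0.456 and 0.424 RPKM in normoxic WT cells, 0.441 and 0.400 in hypoxic WT cells, 0.483 and 0.429 in normoxic HIF1A-/- cells and 0.419 and 0.381 in hypoxic HIF1A-/- cells, and its range overlapped that of WARS2 (0.394 to 0.502 RPKM). WARS2 in turn did not overlap NARS2 (0.852 to 1.21 RPKM), the gene above it. MARS2 had the shortest counted body of the members, 2.09 kb, and FARS2 the longest, 509 kb.

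Of the cytosolic genes, FARSA was densest at 6.33 and 5.64 RPKM in normoxic WT cells, 6.24 and 4.58 in hypoxic WT cells, 7.56 and 5.36 in normoxic HIF1A-/- cells and 7.13 and 5.12 in hypoxic HIF1A-/- cells. These overlapped the next genes, VARS (3.51 to 5.70) and KARS (3.83 to 5.68). Its partner subunit FARSB had 2.17 and 2.43 RPKM in normoxic WT cells, 2.21 and 2.05 in hypoxic WT cells, 2.55 and 1.64 in normoxic HIF1A-/- cells and 2.21 and 1.55 in hypoxic HIF1A-/- cells. FARSA exceeded FARSB in every library. WARS was lowest, at 1.54 and 1.19 RPKM in normoxic WT cells, 1.24 and 0.992 in hypoxic WT cells, 1.502 and 1.30 in normoxic HIF1A-/- cells and 1.63 and 1.36 in hypoxic HIF1A-/- cells, and overlapped EPRS (1.30 to 2.04). Between these ends neighbouring genes overlapped in range, and DARS, sixteenth of 20 by its mean of 2.12 RPKM, spanned 1.56 to 3.80 RPKM with its hypoxic WT libraries at the top.

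HARS and HARS2, the cytosolic and mitochondrial histidine enzymes, start 302 bp apart on opposite strands of chromosome 5, with start windows that overlap by 403 bp. Their gene bodies had similar densities. HARS had 3.53 and 2.89 RPKM in normoxic WT cells, 2.99 and 2.30 in hypoxic WT cells, 3.67 and 3.01 in normoxic HIF1A-/- cells and 3.34 and 2.98 in hypoxic HIF1A-/- cells. HARS2 had 3.85 and 3.498 RPKM in normoxic WT cells, 4.15 and 3.24 in hypoxic WT cells, 3.99 and 3.53 in normoxic HIF1A-/- cells and 3.18 and 3.36 in hypoxic HIF1A-/- cells. Their start windows differed far more, at 6.87 to 18.7 CPM for HARS and 133 to 216 CPM for HARS2. Neither gene was called in hypoxic WT cells (-0.31 ± 0.22 and -0.02 ± 0.19, edgeR adjusted p = 0.897 and 0.983). In all, 11 members had another start on the opposite strand within 1 kb, and of their partners DARS-AS1 alone was called in hypoxic WT cells.

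**Figure D5:**
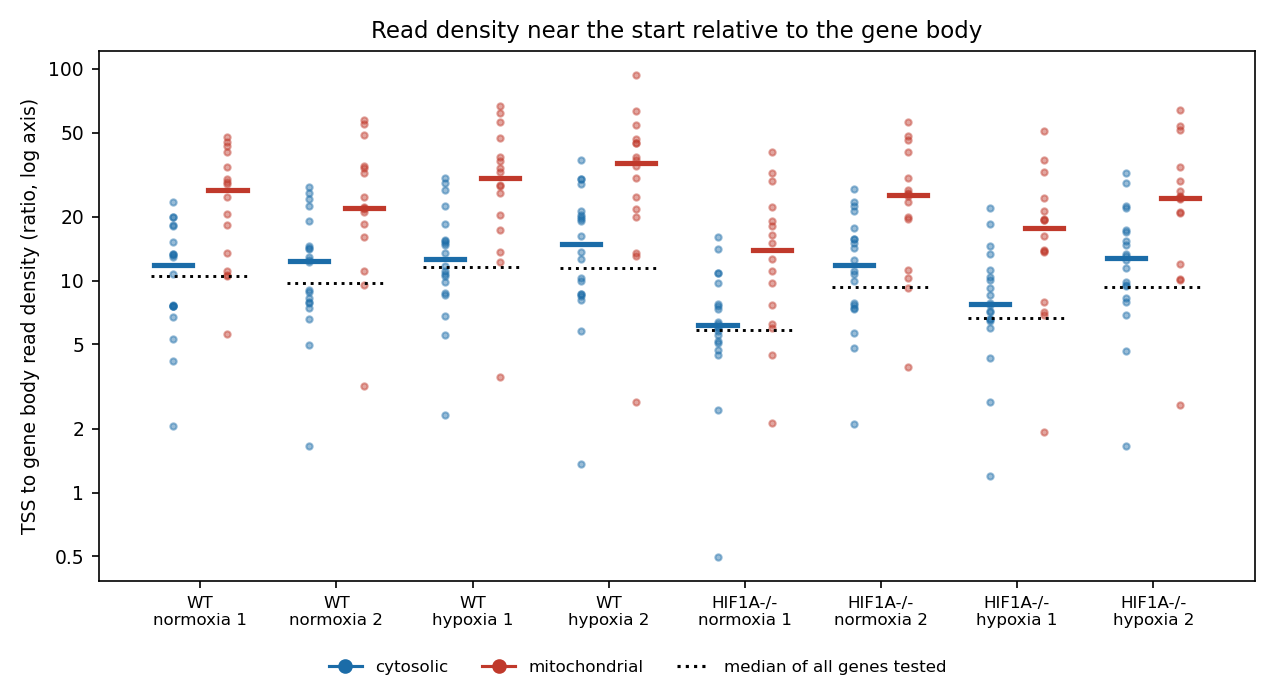
Ratio of read density in the TSS region to that in the gene body (log axis) for every synthetase gene in each library, with a thick line at the median of the 20 cytosolic (blue) and 16 mitochondrial (red) genes and a dotted line at the median of all tested genes. The mitochondrial median (13.9 to 35.8) was above the cytosolic median (6.15 to 14.97) in all 8 libraries, and both were lowest in HIF1A-/- replicate 1 libraries.

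At the median of each class, the members carried denser polymerase near their starts than the middle of the genome. This did not hold for every member. The TSS region of HARS, for example, was below the median of all tested genes. No member's TSS region was called with hypoxia. The median TSS region density per library was 138 to 165 RPKM for the cytosolic and 200 to 229 RPKM for the mitochondrial genes, against 65.7 to 73.2 RPKM for all tested genes. The TSS to gene body density ratio was higher for mitochondrial than for cytosolic genes in every library, and it ran from 0.495 for HARS in HIF1A-/- normoxia replicate 1 to 93.6 for RARS2 in WT hypoxia replicate 2. Without the block and with the filter on low counts, no TSS region of a member was called by edgeR or DESeq2 in any comparison, with 1 member in edgeR below an unadjusted p of 0.05 in WT hypoxia and 3 between genotypes in hypoxia. Over all genes the calls were 0.046% of 15212 regions in hypoxic WT cells, 0% in hypoxic HIF1A-/- cells, 0.00657% for the interaction, 0.657% between genotypes in normoxia and 1.1% in hypoxia. Their median log2 change in hypoxic WT cells was -0.005 for cytosolic and 0.01 for mitochondrial genes, against -0.02 for all. The member with the smallest p there was YARS2, the mitochondrial tyrosine enzyme (0.36 ± 0.16, edgeR adjusted p = 0.922). With the block, the hypoxia comparison of genotypes called EPRS and LARS lower and VARS higher at the TSS (adjusted p = 0.0390, 0.0454 and 0.0280), among 2196 regions (14.4%). VARS had 93.4 and 70.2 CPM at its TSS in hypoxic WT cells against 152 and 92.6 in hypoxic HIF1A-/- cells. No member's pausing index was called other than that of DARS. In WT hypoxia 5 members, DARS included, were below an unadjusted p of 0.05 in edgeR. Of these, DARS and CARS2 were lower, and MARS, RARS2 and YARS2 higher. Other comparisons called 0% of genes with hypoxia in HIF1A-/- cells, 0.0207% for the interaction and 0.0759% between genotypes in normoxia. The median pausing index change in hypoxic WT cells was 0.19 for cytosolic and 0.15 for mitochondrial genes, against 0.01 for all.

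Genes that work with the synthetases were not called in any edgeR comparison of gene bodies without the block. Of 17 listed partners, 15 passed the filter, and their median log2 change in hypoxic WT cells was -0.09. SEPSECS, which makes selenocysteinyl-tRNA, and DTD1, a proofreading deacylase, had the smallest p (0.39 ± 0.21 and 0.32 ± 0.20, edgeR adjusted p = 0.897 for both). Between genotypes in hypoxia the smallest p were those of SEPSECS (-0.48 ± 0.21) and the complex scaffold AIMP1 (-0.33 ± 0.14), with adjusted p of 0.312 and 0.322, and 0.0225 and 0.0425 with the block (edgeR). They were the 2 of 15 tested partners that the block called there, against 28.2% of all gene bodies. The amidotransferase genes QRSL1, GATB and GATC, which make mitochondrial glutaminyl-tRNA in place of a separate enzyme, had WT changes of -0.16 ± 0.21, -0.11 ± 0.17 and -0.28 ± 0.21.

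No listed gene of the ATF4 pathway was called with hypoxia. Of 20 listed genes, 19 were tested, 17 of them lay below 0 in hypoxic WT cells, and the median was -0.24. The smallest p were those of CEBPB (-0.30 ± 0.15) and ATF3 (0.48 ± 0.24), transcription factors of stress responses (edgeR adjusted p = 0.897 for both). Between genotypes in hypoxia TRIB3, a pseudokinase induced by ATF4, and SLC7A11, the cystine transporter, had the smallest p (-0.60 ± 0.15 and -1.38 ± 0.41, edgeR adjusted p = 0.106 and 0.154). With the block these and ATF4, ATF5 and PPP1R15A were called, against the background of 28.2% given above. In normoxia TRIB3 and PPP1R15A had the smallest p (-0.66 ± 0.16 and 0.57 ± 0.17, edgeR adjusted p = 0.131 and 0.256, and called with the block). The block called 1 of the 19 tested genes higher and 2 lower there, against 10.3% of all gene bodies.

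Start windows of 5 members held the letters TGATGNAA, those of an ATF4 binding element, on either strand, 13.9% of members against 2.96% of all windows and 2.13% of those of tested gene bodies. They are shown here with 10 bases on each side and the element in capitals (as its reverse complement where it lies on the other strand), because these are the members whose start letters bear on the ATF4 list above. Their GRCh37 positions are chr16:70323579-70323606 for AARS, chr11:3078638-3078665 for CARS, chr7:30634451-30634478 for GARS, chr6:5261370-5261397 for FARS2 and chr12:32909011-32909038 for YARS2.
AARS: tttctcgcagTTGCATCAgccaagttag
CARS: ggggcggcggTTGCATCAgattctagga
GARS: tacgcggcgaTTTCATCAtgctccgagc
FARS2: ggacgtgcagTTGCATCAcggagagcct
YARS2: tccacactgcTGATGGAAaaattaagtt
None of these 5 genes was called in any comparison, with or without the block. The hypoxia log2 fold changes of their gene bodies in WT cells were -0.25 ± 0.21 (AARS), -0.28 ± 0.29 (CARS), -0.04 ± 0.16 (GARS), -0.10 ± 0.15 (FARS2) and -0.19 ± 0.22 (YARS2). CCGGAAG, the core of ETS factors, was also more frequent among members than among all windows (15 of 36, 41.7% against 11.4%, and 14.1% for tested gene bodies). So were the longer motif of NRF1 (6 of 36, 16.7% against 6.74% and 8.66%) and GCGTG (22 of 36, 61.1% against 41.1% and 46.2%). ACGTG was near its background (10 of 36, 27.8% against 22.5% and 24.3%). The YY1 motif was in a single member (1 of 36, 2.78% against 0.772% and 1.03%). These shares were not tested. The E-box CACGTG, which contains ACGTG, was in 11.1% of members, 7.92% of all windows and 8.8% of those of tested gene bodies.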

How the data were processed

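The authors aligned reads to GRCh37 with HISAT2 2.1.0, kept a single start and the shortest body per gene, and deposited unnormalized read counts from featureCounts (Subread 1.6.2). Alternative starts are therefore not seen, and values were not scaled to a spike-in here, so they are relative to each library. Groups and replicate numbers came from the sample labels. From the counts, genes above 0.5 CPM in at least 2 libraries were kept, and TMM-normalized counts were tested with edgeR 4.0.16 (quasi-likelihood, R 4.3.3) in 1 fit of 4 group means over 8 libraries per region. P-values were adjusted by Benjamini-Hochberg over all genes with calls at 10% FDR. TSS and gene body counts gave the pausing index in 1 fit of 16 columns with a term per library. CPM and RPKM used each table's own total. Sequences were read from GRCh37 with pysam 0.24.0. The sequence at the DARS start is not reported here. The scripts were tested on simulated data. DESeq2 1.42.0, other filters and scalings, a replicate block and leaving out each library were alternatives.

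Libraries with the same replicate number deviated together from their group means in all 6 pairs of groups (correlation across genes from 0.484 up to 0.790 in bodies, and from 0.216 up to 0.519 at the TSS), so the numbers were taken to pair samples. The fit without the block was kept as the main one because the methods name none.

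The members and gene lists were chosen with earlier results of these data known. Values were given in every library for members called in any comparison of the main fit, for the 2 members of each class with the smallest p in each gene body comparison, for the highest and lowest of each class by RPKM, and for HARS, HARS2, FARSA and FARSB. QARS, AARS2, VARS2 and VARS, called under alternatives, were given by library in hypoxia only. PCR copies cannot be told apart in the counts.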

Additional observations from a re-analysis of the deposited data

How the results depend on the processing

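DARS kept its direction in WT hypoxia and between genotypes in hypoxia under every alternative run. With the replicate block the count of members called went from 1 to 11 between genotypes in hypoxia (8 with DESeq2 and the block, which was added after seeing the data), from 0 to 2 in normoxia (2), from 0 to 3 at the TSS in hypoxia (1) and from 0 to 1 for the pausing index interaction, while gene bodies called rose from 72 to 919 in WT hypoxia and from 711 to 4706 between genotypes in hypoxia. Over all genes the block called 6 in HIF1A-/- hypoxia (0 without it), 64 for the interaction (9) and 1722 between genotypes in normoxia (297). DESeq2 called 174 higher and 1 lower in WT hypoxia, 68 higher for the interaction (17 in edgeR with no filter), 299 higher and 331 lower between genotypes in normoxia, and 521 higher and 790 lower in hypoxia. With the block DESeq2 called 672 higher and 356 lower, 122 higher, 674 and 895, and 1836 and 2031 in the same order, and 64 and 98 in HIF1A-/- hypoxia. At the TSS between genotypes in hypoxia, 67 regions were higher and 101 lower, against 587 and 476 with no filter, 1136 and 1060 with the block, 160 and 152 with DESeq2, 557 and 526 with DESeq2 and the block, and 506 and 433 with only these groups in the fit. DESeq2 without the block called 3 members between genotypes in hypoxia and 1 for the gene body interaction (1 with the block). Library totals without TMM and a mean CPM above 1 each called 2 members there (EPRS added). With no filter, 1 member (VARS) was called at the TSS between genotypes in hypoxia, and the fit on WT libraries alone called 0 members in WT hypoxia. The HIF1A-/- median change in hypoxia was -0.118, -0.078, -0.114, -0.126 and -0.116 for cytosolic genes (DESeq2 with block, library totals, CPM above 1, no filter, block) and -0.001 for mitochondrial genes with library totals. Averaged over libraries, the class median densities were 3.191 (cytosolic) and 2.211 RPKM (mitochondrial), and 2.654 and 1.848 RPKM with the reads of both tables as the total.

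Leaving out single libraries gave 0 members called in WT hypoxia gene bodies and 0 to 1 for the pausing index. Class medians in cytosolic genes ran from -0.192 to 0.008 (HIF1A-/- hypoxia), -0.209 to 0.091 (genotypes in hypoxia), -0.298 to -0.033 (genotypes in normoxia), -0.260 to 0.082 (interaction) and -0.399 to -0.035 (WT hypoxia). In mitochondrial genes they ran from -0.209 to 0.056, -0.052 to 0.220, -0.068 to 0.224, -0.177 to 0.097 and -0.302 to 0.005 in the same order. Changes near 0 turned sign without 1 library for DARS in HIF1A-/- hypoxia (-0.147 to 0.053, 0.019 without hypoxia replicate 2), RARS there (-0.332 to 0.008) and EARS2 between genotypes in normoxia (-0.002 to 0.463). The causes were not tested. Members had at least 177 gene body reads in every library, and TSS reads went down to 22 for HARS. The block changed no other call of a member.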
